A study of Mus musculus with 6 samples.

Results

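Costimulatory and checkpoint ligands are the surface proteins through which a B cell raises or lowers the activity of the cells it touches. The 10 genes described here were taken by symbol from the 23420 genes listed for each sample: Cd80, Cd86, Cd83, Icosl, Cd274, Pdcd1lg2, Btla, Cd24a, Cd47 and Cd200. They were chosen by what their proteins are known to do and not by a threshold on their values. The choice was made with earlier results of these data known, so the counts below are a description. All 10 passed the filter on low values that 11233 genes passed. From spleens of WT BALB/c mice, 7 to 11 weeks old, B cells were purified by negative selection with beads and cultured for 4 hours with 10 μg/ml of CpG ODN 1826, a synthetic DNA that activates TLR9, or without a stimulus, before mRNA was read by RNA-seq. Each group had 3 samples, from 3 mice, with replicates 1 and 2 labeled female and replicate 3 male, and 10 M cells were plated at 10 M/ml for each. The labels name no engineered allele, both groups went through the same purification and culture, and cells taken straight from the spleen were not analysed here.

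In T cell help, the first signal comes from the antigen receptor, and the second from ligands of the B7 family on the antigen-presenting cell. CD80 and CD86 engage CD28, which activates the T cell, or CTLA-4, which restrains it, and ICOSL engages ICOS, a receptor needed for germinal center help. PD-L1 (encoded by Cd274) and PD-L2 (encoded by Pdcd1lg2) engage the inhibitory receptor PD-1. BTLA is itself an inhibitory receptor of B and T cells, and binds HVEM in either direction, while CD47 and CD200 give inhibitory signals to phagocytes and other myeloid cells through SIRPα and CD200R. CD83 and CD24 are surface glycoproteins of activated or developing B cells, CD83 in particular being known to keep MHC class II and CD86 at the surface.

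Values are log2 CPM, the log2 of the counts per 1 M reads, as the authors' voom step gave them, and log2FC is the difference between the mean of the stimulated and the mean of the unstimulated samples. A gene was called when its adjusted p was under 0.05 (limma over all 11233 genes, Benjamini-Hochberg adjustment). Of the 10 genes, 6 rose with CpG (Pdcd1lg2, Cd274, Btla, Cd200, Cd80 and Icosl), where 37.6% of all genes tested rose. There were 2 that fell, Cd86 and Cd24a, where 36.7% of all genes fell, and Cd83 and Cd47 were not called. A log2FC over 1 was passed by 3 of the 10 (Pdcd1lg2, Cd274 and Btla) against 15.8% of all genes, and none of the 10 had a called log2FC under -1, where 15.3% of all genes did. The groups of samples did not overlap in 8 of the 10 genes, against 77.7% of all genes, which is close to the same share. The median log2FC of the 10 genes was 0.65, beside 0.003 for all genes tested.

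**Figure D1:**
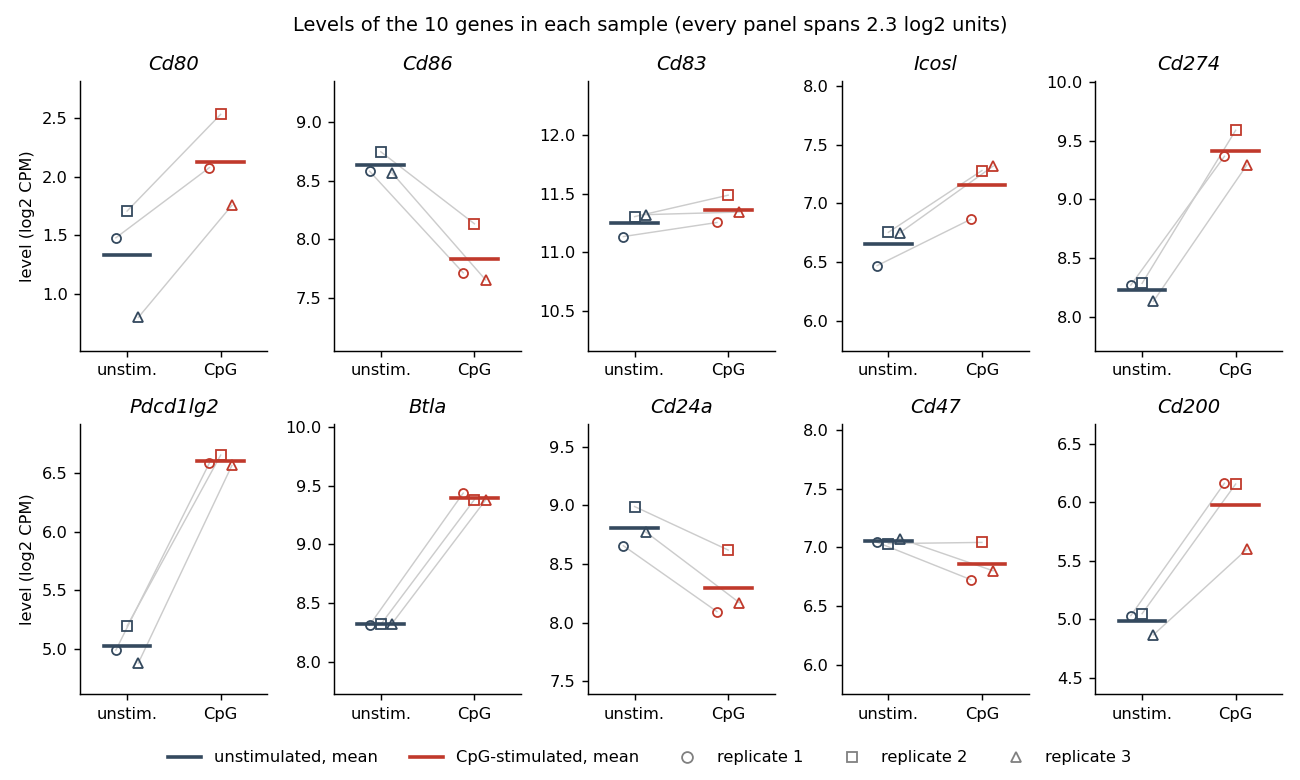
Level of each of the 10 genes in each sample, in log2 CPM, with unstimulated samples on the left and CpG-stimulated samples on the right of each panel; symbols mark the replicate number, thick bars the group mean (n = 3), thin lines join samples of the same number, and every panel spans the same range on its axis. Pdcd1lg2, Cd274 and Btla moved up, Btla with the smallest spread, Cd86 and Cd24a moved down, and the groups of Cd83 and Cd47 overlapped.

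B cell identity was checked with 4 markers (Cd79a, Cd79b, Ms4a1 and Cd22), whose levels summed to between 2613 and 3202 CPM in the unstimulated and between 1383 and 1695 CPM in the stimulated samples. Of the 4, Ms4a1 rose (log2FC 0.77), while Cd79a (-1.62), Cd79b (-1.17) and Cd22 (-2.40) fell. None of 5 markers of T cells and none of 3 of NK cells passed the filter. T cell sums lay between 0.559 and 0.954 CPM, and NK cell sums between 0.169 and 0.280 CPM without and between 0.657 and 1.36 CPM with CpG, a difference carried by Klrb1c (-4.65 ± 0.33 and -0.13 ± 0.62 log2 CPM, SD, n = 3). Of 6 myeloid markers 5 passed the filter, with sums of 7.19 to 13.9 CPM without and 10.1 to 15.3 CPM with CpG, and Adgre1 rose. Csf1r and Cd14 were called lower, but every stimulated sample was under the value of 10 reads, so both were tested only through the unstimulated samples in which they were higher. Of 7 dendritic cell markers 1 passed, Zbtb46, which rose by 1.62 and made up nearly all of the sum (19.4 to 24.9 CPM without and 64.1 to 69.5 CPM with CpG), while Clec9a, Cd209a and Clec10a were at or under the value of 3 reads in every sample. The other 3, Xcr1, Itgax and Siglech, did not pass the filter but were above the value of 3 reads (-2.34) in some samples, with highest values of -0.43 (unstimulated), -1.25 and -2.16 (both stimulated) log2 CPM. Erythroid markers summed to between 382 and 4902 CPM and were highest in both samples numbered 2; with both of those left out, each of the 8 calls among the 10 genes held and Cd47 was called as well. The part of these other markers in the values of the 10 genes was not tested. In bulk samples, fewer cells of a type and less RNA per cell cannot be told apart. Quantile normalization by the authors fixed the total, so a change in total RNA per cell is not in the values either.

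To show what the start of these genes looks like, the reference sequence upstream of the start site is printed for the 3 genes with a log2FC over 1 and for Cd80. The printed genes are those in which a motif was found. Cd200, which rose more than Cd80 (0.99 against 0.79), held none and is not printed. RefSeq start sites of GRCm38.p6, the C57BL/6J reference, were used, while the mice were BALB/c. A start site was matched for 7 of the 10 genes and none for Cd86, Cd83 and Cd24a. Of 4 motifs searched on both strands from 250 bases before to 50 bases after the start, the NF-κB consensus was found, of these 7 genes, in Pdcd1lg2 alone (4.51% of 32851 promoters hold it), the AP-1 motif TGANTCA in Cd80 alone (7.81%), and the core GAAANNGAA of interferon response elements in Cd274, on the reverse strand, and in Btla (8.56%). GGAANNGAA, a core bound by ETS and IRF factors together, was in none of the 7 genes and in 8.24% of all promoters. Icosl, Cd200 and Cd47 held none of the 4 motifs. Matches start at -244 in Pdcd1lg2, -42 in Cd80, -76 in Cd274 and -210 in Btla, counted from the base before the start site as -1, and capitals mark them below; bases within an exon of a coding transcript are left out.
Pdcd1lg2 (chr19:29410669-29410918, plus strand): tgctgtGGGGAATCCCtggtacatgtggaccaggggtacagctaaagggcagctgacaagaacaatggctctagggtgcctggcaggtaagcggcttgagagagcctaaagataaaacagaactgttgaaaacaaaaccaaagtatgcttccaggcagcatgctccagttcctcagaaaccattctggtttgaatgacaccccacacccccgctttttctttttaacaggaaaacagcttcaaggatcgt
Cd274 (chr19:29367309-29367437, plus strand): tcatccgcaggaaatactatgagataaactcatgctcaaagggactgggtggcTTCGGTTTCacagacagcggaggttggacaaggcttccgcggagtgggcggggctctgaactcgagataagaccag
Btla (chr16:45224087-45224314, plus strand): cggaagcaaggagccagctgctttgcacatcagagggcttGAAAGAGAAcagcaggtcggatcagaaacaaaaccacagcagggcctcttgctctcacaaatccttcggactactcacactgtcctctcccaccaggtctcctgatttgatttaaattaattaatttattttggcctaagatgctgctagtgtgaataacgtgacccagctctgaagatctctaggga
Cd80 (chr16:38458683-38458932, plus strand): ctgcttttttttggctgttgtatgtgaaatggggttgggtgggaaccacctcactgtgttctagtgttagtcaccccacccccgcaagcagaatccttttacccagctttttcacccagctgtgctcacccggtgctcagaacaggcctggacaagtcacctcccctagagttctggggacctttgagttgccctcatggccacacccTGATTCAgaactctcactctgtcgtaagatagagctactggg
A match is a run of letters and not a binding site, and with windows of the 200 bases nearest the start the matches in Pdcd1lg2 and Btla fall outside. The starts used for Cd80 and Cd47 lie within the GENCODE spans of these genes, which begin further upstream. Those used for Icosl, Cd47 and Cd274 match the exact start of no GENCODE transcript.

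Genes for the PD-1 ligands rose the most. Pdcd1lg2, encoding PD-L2, lies on the plus strand of chromosome 19 of GRCm38, from 29410919 to 29471161. Its levels were 4.99, 5.20 and 4.88 log2 CPM in the unstimulated and 6.59, 6.65 and 6.57 in the stimulated samples 1, 2 and 3. All stimulated samples were well above all unstimulated ones and close to one another. The mean went from 5.02 ± 0.16 to 6.60 ± 0.05 (SD, n = 3), a log2FC of 1.58 (SE 0.09, 95% CI 1.39 to 1.77, adjusted p = 1.38e-07 by limma), or 2.99-fold. Of all genes tested, 6.38% had a higher log2FC. Pdcd1lg2 was also the one gene of the 10 whose log2FC passed when tested against 1 rather than 0. It carries the NF-κB consensus shown above, which falls outside the shorter window. An antisense gene, A930007I19Rik, overlaps the span of Pdcd1lg2 without sharing an exon base.

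Cd274, encoding PD-L1, lies 22.8 kb away on the same strand, from 29367455 to 29388095. Unstimulated samples 1, 2 and 3 had 8.27, 8.28 and 8.13 log2 CPM, and stimulated samples 9.37, 9.59 and 9.29. Every stimulated sample exceeded every unstimulated sample by about a unit. Means were 8.23 ± 0.09 and 9.42 ± 0.15 (SD, n = 3), with a log2FC of 1.19 (SE 0.08, 95% CI 1.001 to 1.38, adjusted p = 6.99e-07 by limma), a 2.28-fold rise. An antisense gene, AC119228.1, shares 511 exon bases with Cd274 and is not among the genes listed in the files. Stretches of 75 bases that also occur in other genes made up 9.22% of the Cd274 transcript. Whether counting used the strand is not given in the sources used here, so reads of the pair within these bases cannot be told apart.

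Per kilobase of exon, PD-L1 transcripts outnumbered PD-L2 transcripts in every sample, but by less after CpG. Cd274 made up 82.2% to 84.0% of the summed level of both genes in the unstimulated and 78.2% to 80.6% in the stimulated samples. In plain log2 CPM, not divided by length, the log2 ratio of Cd274 to Pdcd1lg2 was 3.28, 3.09 and 3.25 without CpG. This ratio was 2.78, 2.94 and 2.73 with CpG, and the groups did not overlap. On average it fell by 0.39, from 3.21 ± 0.10 to 2.82 ± 0.11 (SD, n = 3; exact permutation test, two-sided, p = 0.1, the smallest that 3 samples against 3 can give). It fell in 3 of 3 replicate numbers.

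The pair that binds CD28 and CTLA-4 moved in opposite directions. Cd86, on the minus strand of chromosome 16 from 36603869 to 36666081, encodes the ligand of the pair that activated B cells are known to show first. Its levels were 8.58, 8.75 and 8.57 log2 CPM without CpG and 7.72, 8.13 and 7.65 with it. All stimulated samples were lower, and stimulated replicate 2 was the nearest to the unstimulated group. The mean fell from 8.63 ± 0.10 to 7.83 ± 0.26 (SD, n = 3), a log2FC of -0.80 (SE 0.12, 95% CI -1.06 to -0.54, adjusted p = 0.000125 by limma), which is 1.74-fold lower. Among all genes tested, 20.1% had a lower log2FC.

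Cd80, on the plus strand of chromosome 16 from 38455561 to 38496335, encodes the ligand with the stronger binding to CTLA-4. It was the lowest of the 10 genes, with 1.48, 1.71 and 0.80 log2 CPM in the unstimulated and 2.08, 2.53 and 1.76 in the stimulated samples, between 30 and 102 reads on the common library size. The lowest stimulated sample was just above the highest unstimulated one, so the groups separated narrowly. Means of 1.33 ± 0.47 and 2.12 ± 0.39 (SD, n = 3) gave a log2FC of 0.79 (SE 0.28, 95% CI 0.18 to 1.41, adjusted p = 0.0237 by limma), or 1.73-fold. Within replicate numbers the differences were 0.60, 0.83 and 0.96. With the replicate number as a block, the call was kept (adjusted p = 0.00213 by limma). It was lost without stimulated replicate 2 (0.59, adjusted p = 0.0806 by limma), without unstimulated replicate 3 (0.53, adjusted p = 0.0908), and with no filter (adjusted p = 0.169). Of all genes tested, 5.59% had a larger SD in the unstimulated samples than Cd80.

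In plain log2 CPM, not divided by length, the log2 ratio of Cd86 to Cd80 was 7.10, 7.04 and 7.77 in the unstimulated samples. This ratio was 5.64, 5.60 and 5.90 in the stimulated samples. It fell by 1.59 on average, or 3.01-fold, from 7.30 ± 0.40 to 5.71 ± 0.16 (SD, n = 3; exact permutation test, two-sided, p = 0.1, the smallest possible), and in 3 of 3 numbers. Cd86 nevertheless stayed the main transcript of the pair, with 99.3% to 99.6% of their summed level per kilobase without CpG and 98.0% to 98.4% with it. Both genes together fell from between 104 and 118 to between 55.9 and 78.2 CPM per kb. The 2 PD-1 ligands together went from between 92.4 and 105 to between 222 and 264 CPM per kb. Set side by side within a sample, the PD-1 ligands had 0.963, 0.886 and 0.888 times the summed level of Cd80 and Cd86 in unstimulated samples 1, 2 and 3, and 3.95, 3.38 and 3.96 times that level in the stimulated samples. This last comparison was chosen after the values were seen and was not tested; with the length of the longest transcript in place of all exons it ran from 0.630 to 0.683 and from 2.41 to 2.84.

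Icosl, on the plus strand of chromosome 10 from 78069302 to 78083913, was 6.47, 6.75 and 6.75 log2 CPM in the unstimulated and 6.86, 7.28 and 7.32 in the stimulated samples. Replicate 1 was the lowest in both groups, and the groups did not overlap. Means of 6.66 ± 0.16 and 7.15 ± 0.25 (SD, n = 3) gave a log2FC of 0.50 (SE 0.12, adjusted p = 0.00422 by limma). The call was lost when no filter on low values was applied (adjusted p = 0.0879 by limma). In all genes tested, 29.7% had a higher log2FC.

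Btla had the smallest spread of the 10. The gene lies on the plus strand of chromosome 16, from 45224315 to 45257670, and gave 8.31, 8.32 and 8.33 log2 CPM without and 9.44, 9.38 and 9.38 with CpG. Samples within a group were nearly the same, with a full unit between the groups. With means of 8.32 ± 0.01 and 9.40 ± 0.03 (SD, n = 3), it rose with a log2FC of 1.08 (SE 0.06, adjusted p = 8.90e-08 by limma), or 2.12-fold. An SD larger than that of Btla in the unstimulated samples was found for 99.7% of all genes tested.

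Its neighbour Cd200, which encodes the ligand of the inhibitory receptor CD200R, is 124.5 kb away on the opposite strand, from 45382135 to 45409053. Levels were 5.03, 5.05 and 4.87 log2 CPM without and 6.16, 6.16 and 5.60 with CpG. Stimulated replicate 3 was lower than the other stimulated samples and still above all unstimulated ones. Means were 4.98 ± 0.10 and 5.97 ± 0.32 (SD, n = 3), with a log2FC of 0.99 (SE 0.14, 95% CI 0.68 to 1.30, adjusted p = 0.000105 by limma), a 1.98-fold rise.

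Cd24a, on the plus strand of chromosome 10 from 43578284 to 43584265, encodes the CD24 (heat stable antigen) glycoprotein that binds Siglec-G. It was 8.66, 8.99 and 8.77 log2 CPM in the unstimulated and 8.09, 8.62 and 8.17 in the stimulated samples. Replicate 2 was the highest in both groups, and its stimulated sample lay just under the lowest unstimulated one. The mean fell from 8.81 ± 0.17 to 8.29 ± 0.28 (SD, n = 3), a log2FC of -0.51 (SE 0.13, 95% CI -0.81 to -0.21, adjusted p = 0.00551 by limma). The call was lost without the filter on low values (adjusted p = 0.107 by limma) and without both samples numbered 3 (-0.47, adjusted p = 0.0565). Of its stretches of 75 bases, 1.1% also occur in Gm6212.

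Cd47, the SIRPα ligand, lies on the plus strand of chromosome 16 from 49800533 to 49915010. Unstimulated samples had 7.04, 7.03 and 7.08 log2 CPM and stimulated samples 6.73, 7.04 and 6.80. Stimulated replicate 2 was at the unstimulated level and the other two were below it. The log2FC was -0.19 (SE 0.08, 95% CI -0.38 to -0.01, adjusted p = 0.0540 by limma), short of a call. With the replicate number as a block, the adjusted p was 0.0170, and without stimulated replicate 2 the log2FC was -0.29 with an adjusted p of 0.00136 by limma.

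Cd83, on the plus strand of chromosome 13 from 43784775 to 43803132, was the highest of the 10 genes in every sample. It had 11.13, 11.30 and 11.32 log2 CPM without and 11.25, 11.49 and 11.34 with CpG, and the groups overlapped. In log2 CPM, which takes no account of gene length, cultured unstimulated cells already had Cd83 above 99.8% of all genes tested. With means of 11.25 ± 0.10 and 11.36 ± 0.12 (SD, n = 3), its log2FC was 0.11 (95% CI -0.09 to 0.30, adjusted p = 0.280 by limma), an interval that leaves out changes beyond 0.30.

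**Figure D2:**
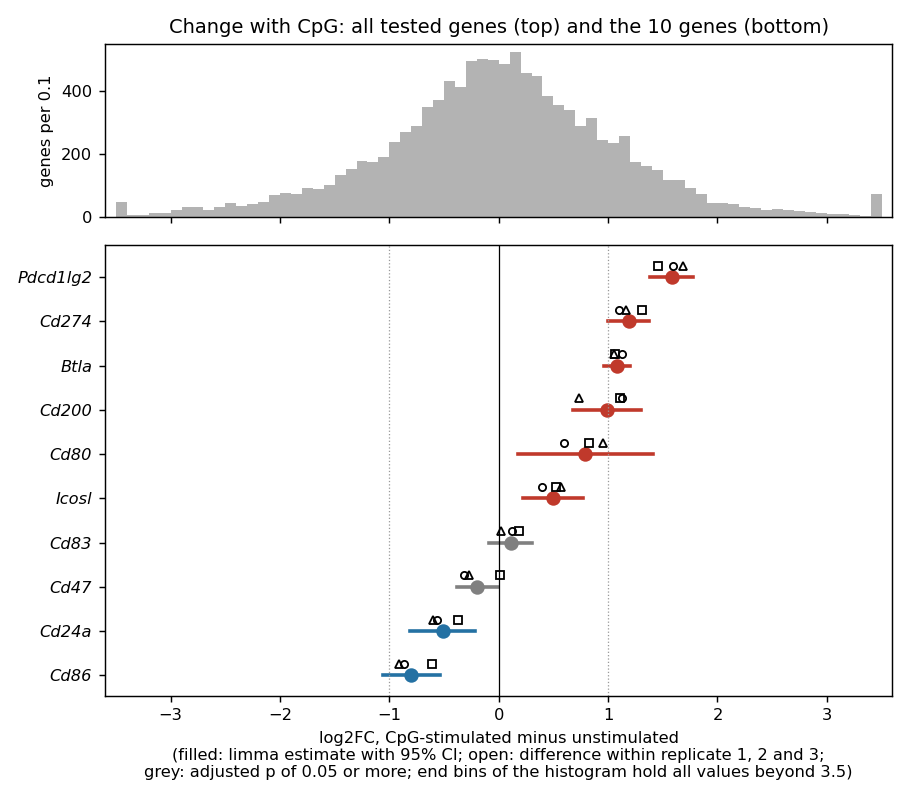
Top, log2FC of all 11233 genes tested; bottom, log2FC of the 10 genes as the limma estimate with its 95% CI (filled) and as the difference between samples of the same replicate number (open), in log2 units, with dotted lines at -1 and 1. Pdcd1lg2 was the highest at 1.58 and Cd86 the lowest at -0.80, and the intervals of Cd83 and Cd47 lay closest to 0.

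Levels can be ordered between genes only per length. By log2 CPM per kb of exon, the unstimulated samples gave the order Cd83, Cd24a, Cd86, Btla, Cd274, Icosl, Cd47, Pdcd1lg2, Cd200 and Cd80. Neighbours in this order did not overlap between samples, except for Icosl and Cd47, whose means were 4.45 ± 0.16 and 4.40 ± 0.02 (SD, n = 3). After CpG it was Cd83, Btla, Cd274, Cd24a, Cd86, Pdcd1lg2, Icosl, Cd200, Cd47 and Cd80, with overlap between Btla and Cd274 and between Cd200 and Cd47. The inhibitory Btla and Cd274 thus went from below to above Cd24a and Cd86. From top to bottom the mean levels ran from 9.89 (Cd83) to -0.56 (Cd80) log2 CPM per kb without CpG and from 10.00 to 0.23 with it. The length of the longest transcript gave the same order in both groups.

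**Figure D3:**
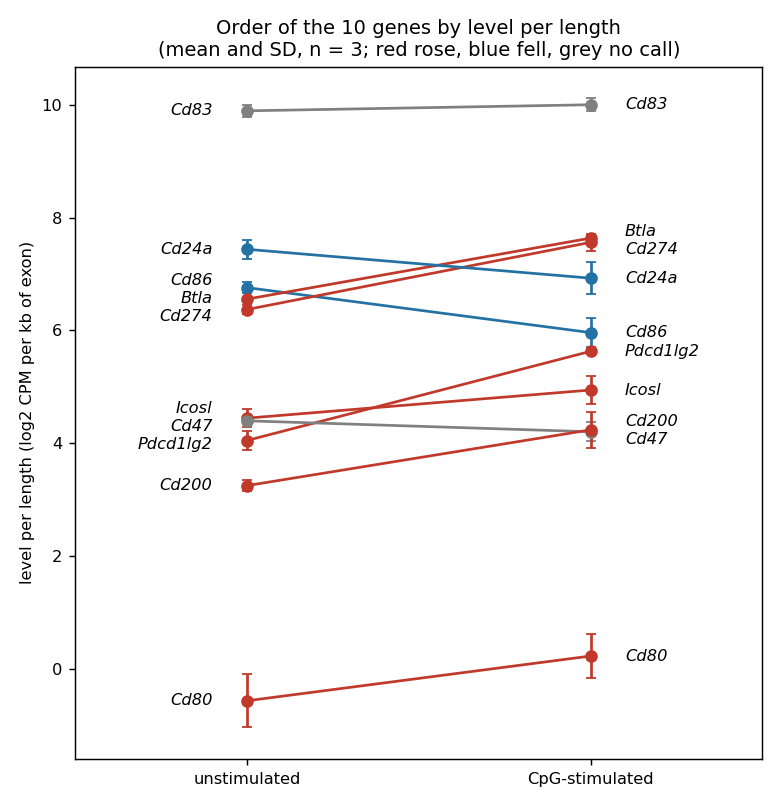
Mean level per length (log2 CPM per kb of exon, with SD, n = 3) of the 10 genes in unstimulated and CpG-stimulated samples; red genes rose, blue genes fell and grey genes were not called. Lines of Btla and Cd274 cross those of Cd24a and Cd86, while Cd83 stayed at the top and Cd80 at the bottom.

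Receptors and partners of these ligands were followed as a list of 11 genes, of which 6 passed the filter. There were 2 higher and 2 lower, with a median log2FC of -0.007. Shares over all genes tested were 37.6% higher and 36.7% lower. Ctla4, whose protein takes up CD80 and CD86, rose with a log2FC of 1.57 (adjusted p = 7.07e-05 by limma), between means of 0.46 ± 0.15 and 2.04 ± 0.26 log2 CPM (SD, n = 3), which are low levels. Rgmb, which encodes a second partner of PD-L2, rose by 0.57. Siglecg, the CD24 receptor and an inhibitor of B cell receptor signaling, fell from 6.09 ± 0.08 to 4.00 ± 0.25 (SD, n = 3), a log2FC of -2.10 (adjusted p = 1.60e-07 by limma). Thbs1, encoding a secreted CD47 partner, had a log2FC of -2.41 with a lowest stimulated sample of -1.92, near the limit of detection of -2.34, and was not tested when 10 reads were asked for in all samples. Tnfrsf14, encoding HVEM, had a log2FC of 0.25 and Sirpa one of -0.27, neither called. Cd28, Icos, Pdcd1, Cd160 and Cd200r1, which mark mainly T, NK or myeloid cells, did not pass the filter.

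Turnover and signaling of the ligands was covered by 9 genes that all passed the filter, with 1 higher, 4 lower and a median log2FC of 0.05. Beside these counts, 37.6% of all genes tested were higher and 36.7% lower. Marchf1, listed as March1, encodes the ubiquitin ligase that removes CD86 and MHC class II from the surface. It fell from 6.13, 6.08 and 6.43 to 3.07, 3.39 and 3.20 log2 CPM, the groups lying several units apart. Its log2FC was -2.99 (SE 0.12, adjusted p = 2.90e-08 by limma), in the same direction as that of Cd86. Cmtm6, whose protein keeps PD-L1 from degradation, fell from 8.39 ± 0.02 to 7.60 ± 0.05 (SD, n = 3), a log2FC of -0.80 (adjusted p = 6.58e-07 by limma), while Cd274 rose. The sheddases Adam10, with a log2FC of -1.34, and Adam17, with -0.30, also fell. Ptpn11, encoding the phosphatase SHP-2 that acts below PD-1 and BTLA, rose by 0.40. Ptpn6 (0.07), Cmtm4 (0.13), Qpctl (0.05), which modifies CD47 for SIRPα binding, and Marchf8 (0.31) were not called, though Ptpn6 was called without stimulated replicate 1 (0.21) and Marchf8 without unstimulated replicate 2 (0.86).

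Other ligands of the B7, butyrophilin and related families made up a list of 11 genes, of which 5 passed the filter. There were 2 higher and 2 lower, with a median log2FC of 0.43, where 37.6% of all genes tested rose and 36.7% fell. Vsir, listed as 4632428N05Rik and encoding the inhibitory ligand VISTA, had 6.97, 6.53 and 6.30 log2 CPM without and 8.03, 7.67 and 7.53 with CpG. Replicate 1 was the highest in both groups, and all stimulated samples were above the unstimulated ones. The log2FC was 1.14 (SE 0.17, adjusted p = 0.000130 by limma). Pvr, the CD155 ligand of TIGIT and CD226, rose by 0.43, Lgals9 fell by 0.50, Ceacam1 fell by 1.42, and Btnl2 had a log2FC of 0.50 without a call (adjusted p = 0.0673). Both weak results changed when single samples were left out. Pvr lost its call without stimulated replicate 3 (0.41), unstimulated replicate 1 (0.32) or unstimulated replicate 3 (0.37). Btnl2 gained one without stimulated replicate 1 (0.61) or 3 (0.64). Vtcn1, Btn1a1 and Ildr2 were at or under the value of 3 reads in all samples. Cd276, Btn2a2 and Nectin2, listed as Pvrl2, did not pass the filter either.

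**Figure D4:**
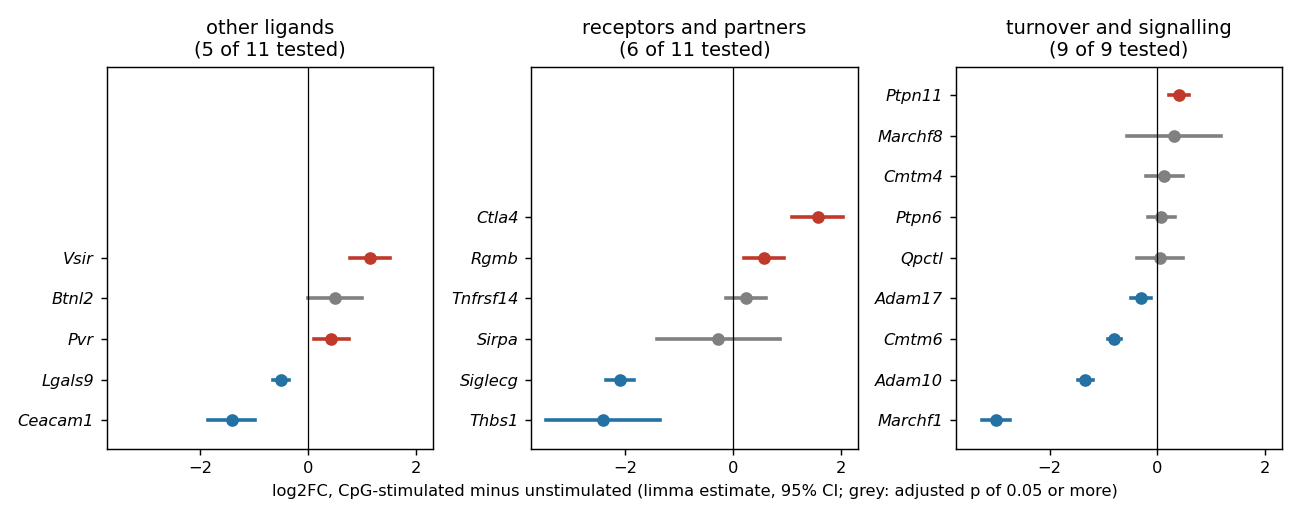
Log2FC with 95% CI (limma) of the tested genes of 3 lists: other ligands (5 of 11 tested), receptors and partners (6 of 11) and turnover and signaling (9 of 9); red genes rose, blue genes fell and grey genes were not called. Marchf1, Thbs1 and Siglecg were the lowest, and Ctla4 and Vsir the highest.

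By position, 5 of the 10 genes were on chromosome 16 (Cd86, Cd80, Btla, Cd200 and Cd47), where 721 of the listed genes were placed. Cd274 with Pdcd1lg2 and Btla with Cd200 were the close pairs, and each pair rose together. To see whether the genes around them moved alike, the 3 nearest tested genes on each side were taken. Of 47 such neighbours that were not among the 10, 24 rose, 17 fell and 6 were not called, with a median log2FC of 0.37. A log2FC over 1 was passed by 10 of them and one under -1 by 7. Beside these counts stand the shares of all genes tested: 37.6% rose, 36.7% fell, 15.8% passed 1 and 15.3% passed -1.

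Next to the PD-1 ligands, Plgrkt rose by 0.66, Insl6 by 1.79, A930007I19Rik by 2.27 and Ric1, listed as C030046E11Rik, by 0.79. In the same stretch Jak2, the kinase of several cytokine receptors, fell by 0.82, and Ermp1 had a log2FC of -0.17 without a call. Among the neighbours of Btla and Cd200, Atg3 rose by 0.45, Gtpbp8 by 0.49, Abhd10 by 0.77 and Dzip3 by 0.93. Slc35a5 fell by 0.32 and Plcxd2 fell by 1.93. Not all of them are close: by gene starts, Gtpbp8 lay 484.8 kb from Btla. Plcxd2 lay 577.1 kb and Dzip3 3542.1 kb from Cd200. Neither set of neighbours thus moved in one direction. A930007I19Rik had a mean of -0.65 ± 0.47 log2 CPM without CpG (SD, n = 3) and was not tested when 10 reads were asked for in all samples.

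Among the neighbours of Cd86, which fell, Ccdc58 rose by 1.62 and Fam162a by 1.68, at 497.3 and 525.1 kb by gene starts. Ildr1 fell by 1.96, Wdr5b by 1.26 and Eaf2 by 1.22, at 125.0, 527.8 and 223.9 kb. Timmdc1 (1.05) and Poglut1 (1.17) near Cd80, Pwp2 (1.43) near Icosl, and Ift57 (1.14) near Cd47 rose. Near Cd24a, Mtres1, listed as 1700021F05Rik (1.53), and Bend3 (1.16) rose and 1700027J07Rik had a called log2FC of -1.72. With means of -0.24 ± 0.24 without and -1.96 ± 0.73 log2 CPM with CpG (SD, n = 3), 1700027J07Rik passed the filter only through the unstimulated samples, and its call was lost without both samples numbered 3 (-1.34, adjusted p = 0.0722 by limma). Mylip, 1604.6 kb from Cd83 by gene starts, fell by 2.07. Dubr, listed as 5330426P16Rik and 875.4 kb from Cd47, fell by 2.50.

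**Figure D5:**
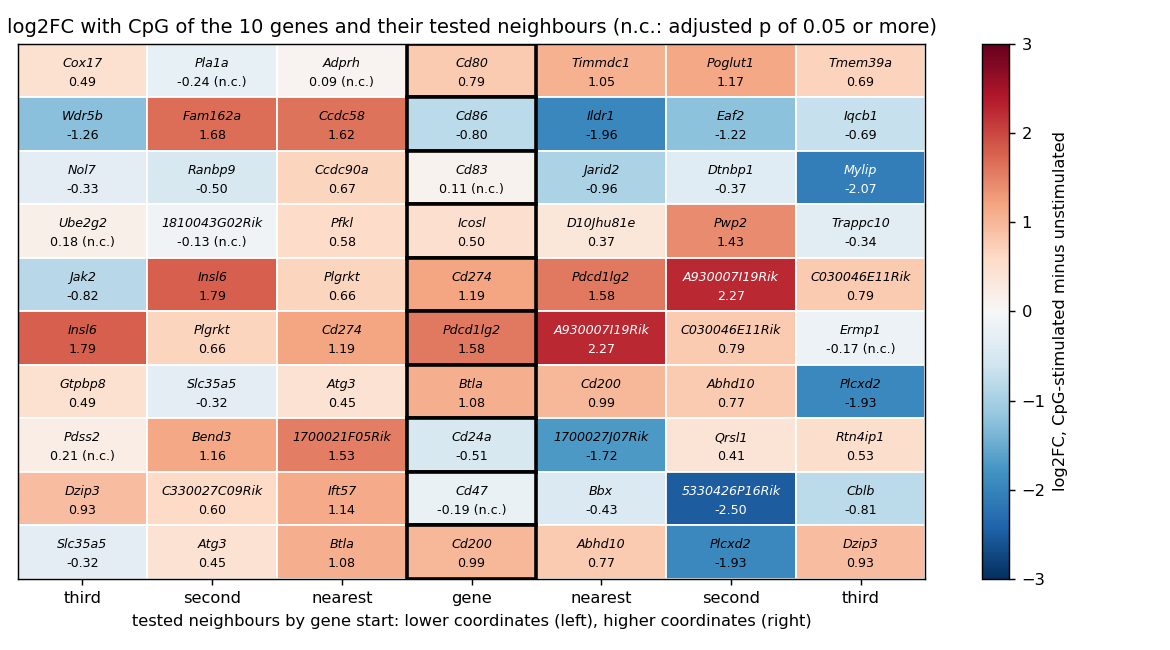
Log2FC of each of the 10 genes (framed) and of the 3 nearest tested genes on either side, ordered by the start of the gene; red is higher and blue is lower with CpG, and n.c. marks genes that were not called. Both directions occur in the row of most genes, among them those of Cd274 and Btla.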

How the data were processed

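RNA-seq values of 3 CpG-stimulated and 3 unstimulated samples were used, grouped by their labels. Per the labels and methods, the authors trimmed reads, aligned them to mm10 with STAR (2.6.1a), counted them per gene with featureCounts (Subread 2.0.1), quantile normalized the counts and converted them with voom. The deposited values are log2 CPM, not counts. Their most common value, -5.15, was taken as 0.5 reads, which gives a library of 17.8 M reads. On it, 10 reads are -0.76 and 3 reads, the limit of detection, -2.34. Some values lie lower, such as -5.90 for Icos in stimulated sample 1, so these cut-offs are approximate in each sample. Depth per sample is unknown. These levels cover counting error only. P-values measure the spread between samples, part of which may be technical. Values of one number carry a common shift per gene that leaves differences within the number as they are. SDs and p-values of the fit without a block include this shift. When a single sample is left out the shift does not cancel between the groups, so a call lost or gained there may come from it.

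Genes with the value of 10 reads in at least 3 samples were tested with limma 3.58.1 in R 4.3.3 (lmFit, eBayes with a trend), with Benjamini-Hochberg adjustment over all 11233 of them. Deviations from group means correlated between samples of the same number (r = 0.435, 0.224 and 0.300 across genes). Between samples of other numbers r ran from -0.281 to 0.028. A shift per gene common to one number gives such a correlation by itself, so it cannot show that samples of one number are pairs. The numbers, taken from the labels, were treated as pairs in a blocked alternative. Ratios were compared by exact permutation. The procedure was tested on simulated data in which a log2FC of 1.5 was added to 200 genes. Of these, 174 were called, as were 8 unchanged genes. This says little about smaller changes, such as those of Cd80, Icosl, Cd24a and Cd47. Coordinates and exon lengths came from GENCODE on GRCm38, promoters from RefSeq on GRCm38.p6. All genes of the 3 lists were named, and neighbours where called past a log2FC of 1 or taken for the PD-1 ligands, Btla and Cd200. The 10 genes and the lists were chosen with earlier results of these data known. Protein sequences were not used here. A further marker gene is not reported here.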

Additional observations from a re-analysis of the deposited data

How the results depend on the processing

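Of 150 values of the 10 genes under 15 alternatives, 133 kept direction and call, 13 lost the call, 4 gained one and 0 reversed. Without a filter the calls of Cd80 (0.79, adjusted p = 0.169 by limma), Icosl (0.50, 0.0879) and Cd24a (-0.51, 0.107) were lost, leaving 1 of the 10 genes lower, and of the other ligands 1 was higher and 4 lower. With 10 reads in all 6 samples, 1 receptor or partner was lower, as fewer genes are tested. Tested against a log2FC of 1 with limma's treat, which asks for more, 914 genes were higher and 968 lower, and of the 10 genes 1 was higher (Pdcd1lg2) and 0 lower, where the plain limma fit called 6 and 2. Cd80 (0.79), Cd86 (-0.80), Icosl (0.50), Cd274 (1.19), Btla (1.08), Cd24a (-0.51) and Cd200 (0.99) lost the call there; the other ligands had 0 in either direction, receptors 0 higher, turnover genes 0 higher and 2 lower, and neighbours 6 higher and 4 lower. Without the variance trend 1 of the other ligands was higher.

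With the replicate block Cd47 (-0.19) was called (adjusted p = 0.0170), as it was with samples centred on the median (-0.20, adjusted p = 0.0497 by limma); among the genes of the lists and the neighbours the block changed 1 call, that of Ube2g2. Without each sample in turn, Cd80 ran from 0.53 to 0.98 and Cd47 from -0.29 to -0.13, while other ligands called higher ran from 1 to 3 and turnover genes called higher from 1 to 2. Genes without a call in the fit of all samples changed sign: Sirpa (-0.674 to 0.072), Qpctl (-0.084 to 0.247), Pla1a (-0.570 to 0.211), Ptpn6 (-0.015 to 0.208), 1810043G02Rik (-0.274 to 0.009) and March8 (-0.062 to 0.857). Chosen after seeing the data, the fit without both samples numbered 2 called Cd47 (-0.30, adjusted p = 0.00469 by limma) and 2 turnover genes higher, and Ptpn6 was -0.083; the fit without both samples numbered 3 lost Cd24a (-0.47, adjusted p = 0.0565 by limma), leaving 1 of the 10 genes lower, and Sirpa was 0.051, Qpctl -0.155 and 1810043G02Rik 0.065. Where no reason is given, the cause was not tested. Cd80 had the lowest level of the 10 genes, and the part of depth in its spread was not tested.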
